A study of Ophiorrhiza pumila with 6 samples.

Results

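The genes described here are those of abscisic acid (ABA) synthesis and signalling in hairy roots (HR) of *Ophiorrhiza pumila*, a camptothecin-producing plant of the Rubiaceae. They were chosen by the descriptions deposited with the assembled transcripts (contigs): a contig was a member when its description named abscisic acid, 9-cis-epoxycarotenoid, zeaxanthin epoxidase, protein phosphatase 2C (PP2C) or a numbered PYL receptor, and cytochrome P450 and abscisic stress-ripening descriptions were left out. The rule found 99 of 59855 contigs, which belonged to 67 of 47425 assembly genes (groups of contigs that the assembler placed together). The rule read descriptions and no measured value, though the genes were proposed with earlier results of these data known. Contigs of 1 assembly gene can share reads, so a count of contigs is not a count of genes. The main counts of called contigs are given with their assembly genes.

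RNA-seq was performed on 6 HR lines, with 2 lines of each construct and 1 library of each line. ERF1i-7 and ERF1i-19 carried an RNA interference (RNAi) hairpin against *OpERF1*, ERF2i-2 and ERF2i-3 carried one against *OpERF2*, and GUSi-9 and GUSi-10 carried a control hairpin against the GUS reporter, a bacterial gene. *OpERF1* and *OpERF2* encode transcription factors of the AP2/ERF family. All lines were 3 weeks old, each came from its own transformation event, and all hairpins were driven by the same constitutive viral promoter in roots induced with *Agrobacterium rhizogenes*, so that every group, the control included, consisted of transformed roots expressing a hairpin. The clone numbers of the ERF2i pair were interchanged between the sample titles and the column names of the annotation table. The titles were followed. The relative read depths that the study states for the pair follow the column names instead, so ERF2i-2 and ERF2i-3 may be exchanged in every statement below that names 1 of them, and no comparison between constructs depended on that choice.

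ABA is made in plastids from carotenoids. Zeaxanthin epoxidase prepares the epoxycarotenoid substrate, 9-cis-epoxycarotenoid dioxygenase (NCED) cleaves it in the step that usually limits the rate, and ABA 8′-hydroxylases start the breakdown of the hormone. Receptors of the PYR/PYL family bind ABA and then block PP2Cs of clade A, which frees SnRK2 kinases to phosphorylate bZIP factors of the ABI5 and ABF type at ABA-responsive promoters. In roots ABA is known for its part in the response to drying soil and in the growth of lateral roots. Most plant PP2Cs lie outside clade A and act elsewhere, so the members were read by role: 4 contigs of synthesis, 3 of breakdown, 10 of receptors, 5 of clade A PP2C, 67 of other PP2C, 8 of ABI5-type factors and 2 described as ABA stress ripening protein.

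The libraries held between 11517610 and 13199946 counts. Levels are given as normalised FPKM, in which the count is divided by the effective length of the contig in that library (the length over which a fragment can start) and by the scaled size of the library, and each change is a log2 fold change with its standard error (SE, n = 2 lines against 2) from edgeR's quasi-likelihood test with Benjamini-Hochberg adjustment over 33315 contigs; a contig rose or fell when the adjusted p was under 0.05. The *OpERF1* contig c15284_g1_i1 had 3.40 and 18.5 normalised FPKM in ERF1i and 760 and 642 in ERF2i, against 191 and 126 in GUSi. The *OpERF2* contig c17706_g2_i1 had 3.58 normalised FPKM in the library labelled ERF2i-2 and 16.2 in the library labelled ERF2i-3, against 14.1 and 7.82 in GUSi, so its level did not set the libraries labelled ERF2i apart from the control (log2 −0.15 ± 0.73 SE, adjusted p = 0.903, edgeR). The study measured its targets by qRT-PCR and reported strong suppression of *OpERF2* in the ERF2i lines. Those measurements were not analysed here. Hairpin transcripts carry part of their target and may add reads to it. A mannopine synthase contig of the bacterial T-DNA, c25644_g1_i1, had 0.156 and 0 normalised FPKM in ERF1i and 556 and 289 in ERF2i, against 134 and 128 in GUSi. Contigs that mark green tissue, such as chlorophyll-binding proteins, summed to 128 and 147 CPM (counts scaled to library size) in ERF1i and 67.7 and 103 in ERF2i, against 59.9 and 59.9 in GUSi, and 8 of the 24 tested rose in ERF1i. Of 62 such contigs, between 31 and 35 were at 0 in each library. The root list, which has scarecrow-like factors among its 53 contigs, summed to 1362 and 1176 CPM in ERF1i and 1502 and 1411 in ERF2i, against 1185 and 1275 in GUSi. Of its 47 tested contigs, 3 rose and 1 fell in ERF1i, and 7 rose and 11 fell in ERF2i against GUSi, with a median log2 change of −0.20 in ERF2i; the SHORT-ROOT-like contig c25046_g2_i1 had −1.15 (adjusted p = 0.00749). The part of these T-DNA, root and green-tissue differences in the results below was not tested.

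Of the 99 members, 86 passed the filter on low counts and were tested, in 56 assembly genes. The other 13 had at most 10 counts in any library. In ERF1i against GUSi, 8 members of 4 assembly genes rose and 6 members of 4 assembly genes fell, where 4.06% of all contigs tested were called in either direction (2.66% rose and 1.4% fell). In ERF2i against GUSi, 17 members of 11 assembly genes rose and 4 members of 4 assembly genes fell, where 23.1% of all contigs were called (13.2% rose and 9.88% fell). In ERF2i against ERF1i, 15 members of 11 assembly genes rose and 6 members of 5 assembly genes fell, where 19.6% of all contigs were called (10.6% rose and 9.01% fell). The share of tested members called was 16.3% in ERF1i against GUSi, and 24.4% in each of the ERF2i comparisons, near the share of all contigs there. The median log2 change of the tested members was −0.08 in ERF1i against GUSi, −0.03 in ERF2i against GUSi and 0.05 in ERF2i against ERF1i, beside medians of all contigs within 0.01 of 0. In all, 30 members of 22 assembly genes were called at least once and 56 were not called in any comparison.

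**Figure D1:**
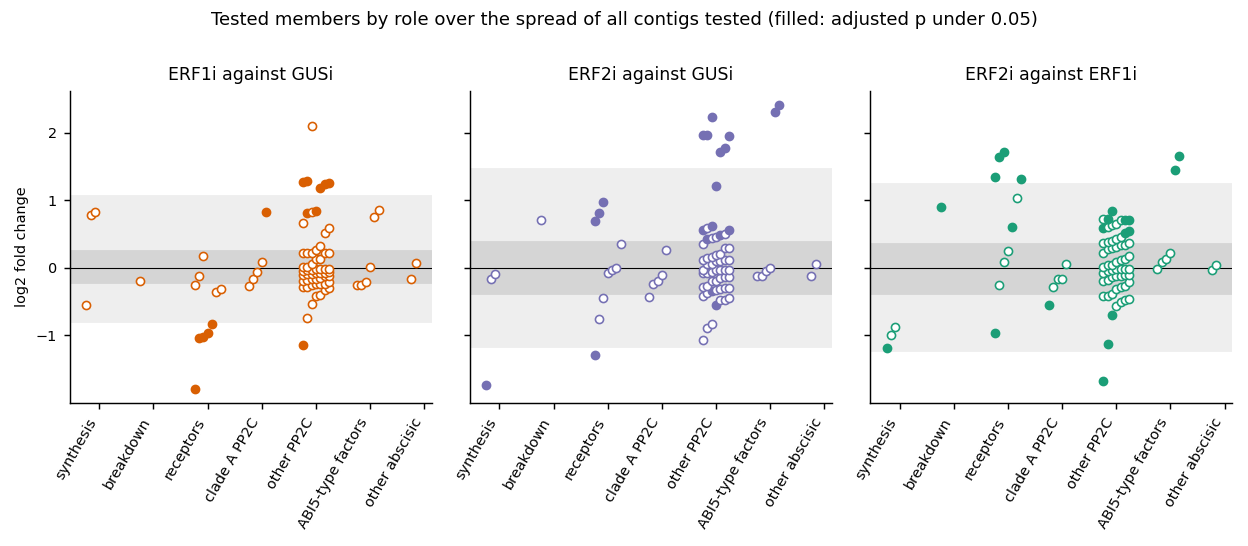
Log2 fold changes (y axis) of the 86 tested members by role (x axis), 1 point per contig, for ERF1i against GUSi, ERF2i against GUSi and ERF2i against ERF1i. Filled points had an adjusted p under 0.05; the dark and light bands hold the middle 50% and 90% of all 33315 contigs tested. The receptors in ERF1i lie mostly below 0 (median −0.60 over 10 contigs of 7 assembly genes). The highest points in ERF2i against GUSi are the ABI5-like 5 contigs, at 2.41 and 2.30.

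These counts depended on the libraries, as did those over all contigs. None of the 14 calls in ERF1i against GUSi was made when ERF2i-2, ERF2i-3 or GUSi-9 was left out, and 1 was made without GUSi-10 (c33488_g3_i4, a receptor); the share of all contigs called in these fits was 0.156%, 0.153%, 0.372% and 0.658% in that order, in place of 4.06%. With the 4 ERF1i and GUSi libraries alone, edgeR called 0 members in that comparison, with 11 rises and 8 falls at an unadjusted p under 0.05, and called 0.104% of all contigs. DESeq2 on all 6 libraries called 9 rises and 6 falls among the members and 5.55% of all contigs. In ERF2i against GUSi the counts were 8 rises and 1 fall without ERF2i-2, and 9 rises and 3 falls without ERF2i-3, the library whose *OpERF2* level was not below the control. Without GUSi-9 they were 11 and 3. The share of all contigs called in these 3 fits was 5.11%, 8% and 10.2%, in place of 23.1%. Without scaling beyond the library total, the median of all contigs moved to −0.24 in ERF2i against GUSi, and the split of the members was 13 rises and 14 falls in place of 17 and 4; in ERF2i against ERF1i it was 9 and 11 in place of 15 and 6. No called member named here changed its sign under that alternative.

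The last enzyme of the plastid route, NCED, fell in ERF2i. The NCED contig c5072_g1_i1 had 6.53 and 10.0 normalised FPKM in ERF2i and 23.4 and 14.1 in ERF1i, against 27.2 and 27.8 in GUSi. Both ERF2i lines were below every other library, and both ERF1i lines were below both controls. The level was 3.32-fold lower in ERF2i than in GUSi (log2 −1.73 ± 0.28 SE, adjusted p = 0.00646, edgeR) and 2.27-fold lower in ERF2i than in ERF1i (log2 −1.18 ± 0.28 SE, adjusted p = 0.0282), whereas in ERF1i against GUSi the change of −0.55 ± 0.26 SE had an adjusted p of 0.293. Without ERF2i-2 the change in ERF2i against GUSi was −1.47 with an adjusted p of 0.0689, and every other omission of a library kept the call. The difference between ERF2i and ERF1i was lost without ERF2i-2 (−0.91, adjusted p = 0.188) or without ERF2i-3 (−1.53, adjusted p = 0.0656), and was smallest, at −0.77, without ERF1i-7. In whole roots, fewer cells that express a gene and less RNA in each such cell cannot be told apart, here and in all results that follow.

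The zeaxanthin epoxidase contigs of the rule were not called in any comparison. c22077_g1_i1 had 8.34 and 14.4 normalised FPKM in ERF1i and 5.01 and 7.46 in ERF2i, against 6.71 and 6.52 in GUSi. The second contig, c22721_g1_i1, had 5.29 and 10.8 in ERF1i and 3.44 and 4.64 in ERF2i, against 5.49 and 3.58 in GUSi. Their log2 changes were 0.78 ± 0.29 and 0.82 ± 0.37 (SE) in ERF1i and −0.09 ± 0.31 and −0.17 ± 0.41 in ERF2i against GUSi, with adjusted p between 0.191 and 0.865, and ERF1i-19 was the highest library for both. The third, c10358_g1_i1, had 2 to 7 counts and was not tested. A contig outside the rule, c32690_g1_i2, whose description lacks the word epoxidase but whose best database hit is a zeaxanthin epoxidase, was looked up after the values were seen. It had 104 and 126 normalised FPKM in ERF2i and 46.3 and 53.9 in ERF1i, against 48.2 and 30.4 in GUSi, and rose in ERF2i against GUSi (log2 1.55 ± 0.22 SE, adjusted p = 0.00441), a call made in every fit that left out 1 library. Its neighbours c32690_g1_i1 and c32690_g1_i3 in the same assembly gene were described as FAD-dependent urate hydroxylase, lay between 11.7 and 15.3 normalised FPKM in every library and were not called. The best hit of c32690_g1_i1 is a zeaxanthin epoxidase too, so the risen contig was not alone in that match.

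Breakdown of ABA was represented by 1 abundant contig. The ABA 8′-hydroxylase 1-like contig c14384_g2_i1, at a mean of 206 normalised FPKM the most abundant of all members, had 297 and 280 in ERF2i and 161 and 147 in ERF1i, against 125 and 228 in GUSi. Both ERF2i lines were above all other libraries, and the control lines lay on both sides of ERF1i. The contig was higher in ERF2i than in ERF1i (log2 0.91 ± 0.26 SE, adjusted p = 0.0497), a call lost when either ERF1i or either ERF2i library was left out (adjusted p of 0.0697 to 0.225), and its change in ERF2i against GUSi was 0.71 ± 0.26 SE with an adjusted p of 0.0895. The other hydroxylase contigs, c4360_g1_i1 and c49284_g1_i1, had at most 1 count in a library.

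All 10 receptor contigs, which belong to 7 assembly genes, were tested, and 7 of the contigs were called at least once. In ERF1i against GUSi, 5 contigs of 3 assembly genes fell and 0 rose, with a median of −0.60 over the 10 contigs. In ERF2i against GUSi, 3 contigs of 2 assembly genes rose and 1 fell, with a median of −0.02. These medians are over contigs, so an assembly gene with several contigs weighs more. At an unadjusted p under 0.05, still 0 receptors were higher in ERF1i than in GUSi, and DESeq2 called the same count of 5 falls and 0 rises. ERF2i exceeded ERF1i in 5 contigs of 3 assembly genes and was lower in 1. The share of receptor contigs called was 50% in ERF1i against GUSi, beside 4.06% of all contigs. It was 40% in ERF2i against GUSi and 60% in ERF2i against ERF1i, beside 23.1% and 19.6% of all contigs. The levels ranged from a mean of 2.69 normalised FPKM for the PYL2-like contig to 118 for the PYL8-like contig c28158_g3_i1.

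**Figure D2:**
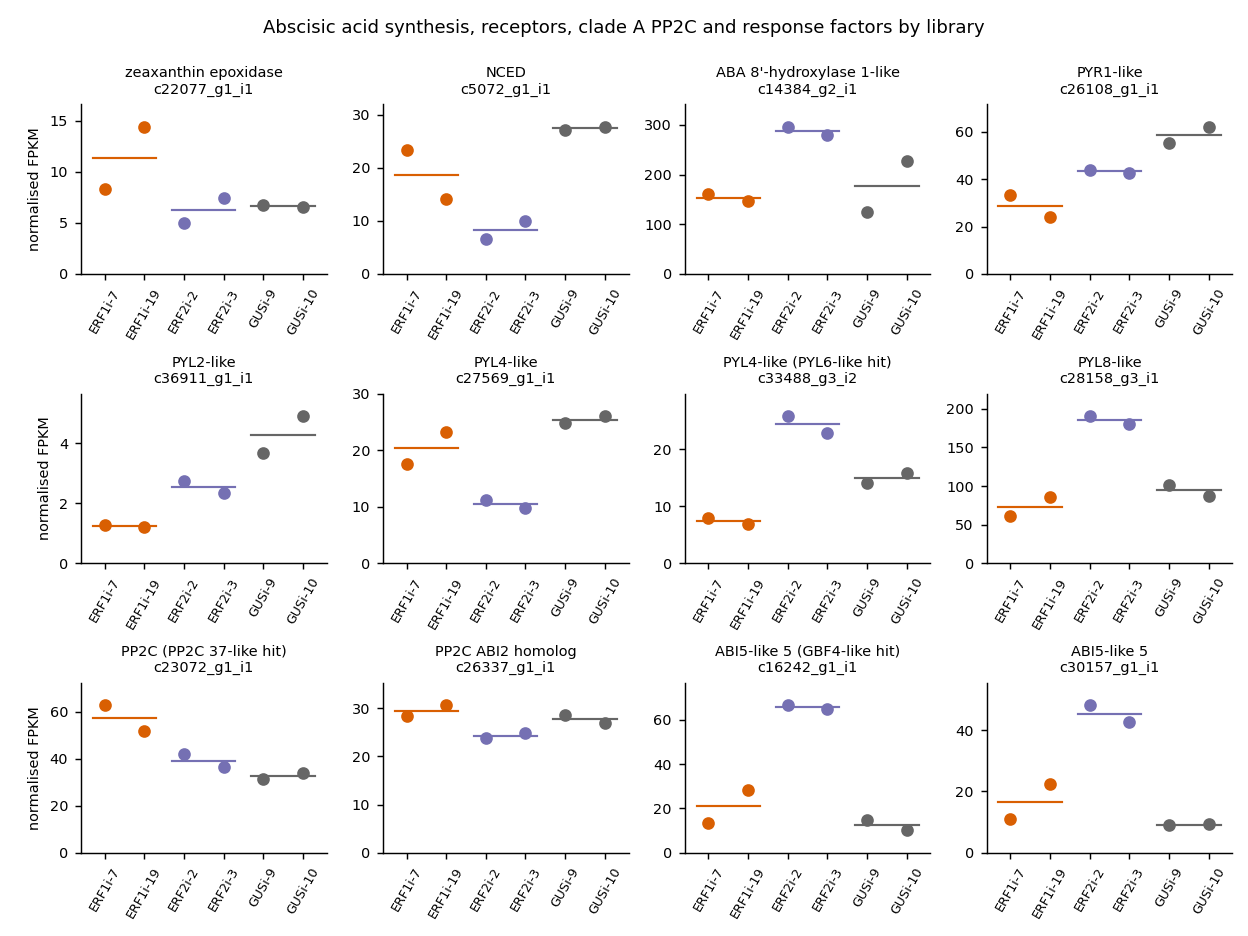
Normalised FPKM (y axis, from 0) of 12 contigs of synthesis, breakdown, receptors, clade A PP2C and ABI5-type factors in the 6 libraries (x axis). Points are libraries, 1 per line, and the horizontal lines are the means of the 2 lines of a construct. NCED is lowest in the ERF2i lines (6.53 and 10.0), the PYL6-like receptor is low in ERF1i (7.98 and 6.86) and high in ERF2i (25.9 and 22.9), and the ABI5-like 5 contigs are highest in ERF2i.

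The receptors with PYR1-like and PYL2-like descriptions, which in Arabidopsis belong to the dimeric receptors, fell in ERF1i. The PYR1-like contig c26108_g1_i1 had 33.3 and 23.9 normalised FPKM in ERF1i and 44.0 and 42.7 in ERF2i, against 55.2 and 62.3 in GUSi. It was 2.05-fold lower in ERF1i than in GUSi (log2 −1.04 ± 0.17 SE, adjusted p = 0.0267), and its change in ERF2i was −0.44 ± 0.16 SE with an adjusted p of 0.0947. The PYL2-like contig c36911_g1_i1 had 1.26 and 1.21 in ERF1i and 2.76 and 2.34 in ERF2i, against 3.67 and 4.92 in GUSi. It was 3.45-fold lower in ERF1i (log2 −1.79 ± 0.31 SE, adjusted p = 0.0325), with a change of −0.76 ± 0.29 SE and an adjusted p of 0.101 in ERF2i. For both contigs the order of the constructs was the same: the ERF1i lines lowest, the ERF2i lines between and the GUSi lines highest, with no overlap. The difference between ERF2i and ERF1i passed for PYR1-like (0.60 ± 0.17 SE, adjusted p of 0.0471) but not for PYL2-like (1.03 ± 0.34 SE, adjusted p = 0.0744). The first of these was lost when ERF1i-19, ERF2i-2, ERF2i-3, GUSi-9 or GUSi-10 was left out (adjusted p of 0.0697 to 0.224).

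The assembly gene c33488_g3, described as PYL4-like with a PYL6-like best hit, moved in opposite directions under the 2 hairpins. Its contig c33488_g3_i2 had 7.98 and 6.86 normalised FPKM in ERF1i and 25.9 and 22.9 in ERF2i, against 14.1 and 15.9 in GUSi, and the 3 constructs did not overlap. It fell in ERF1i (log2 −1.02 ± 0.14 SE, adjusted p = 0.0191) and rose in ERF2i (0.70 ± 0.13 SE, adjusted p = 0.0111). The contigs c33488_g3_i3 and c33488_g3_i4 fell in ERF1i as well, by 0.83 and 0.97 on the log2 scale, and in ERF2i against GUSi they had changes of 0.81 (adjusted p = 0.00769) and 0.35 (adjusted p = 0.0628). The rises of c33488_g3_i2 and c33488_g3_i3 in ERF2i were lost without ERF2i-2, ERF2i-3 or GUSi-9, with adjusted p from 0.0508 to 0.108. Tested directly, ERF2i exceeded ERF1i in all 3 contigs, by 1.71 ± 0.14, 1.64 ± 0.14 and 1.32 ± 0.12 (log2 ± SE), with adjusted p of 0.00115, 0.00121 and 0.00122. These 3 differences were called in every fit that left out 1 library, the highest adjusted p being 0.0249.

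A separate PYL4-like contig, c27569_g1_i1, ran the other way. It had 11.1 and 9.80 normalised FPKM in ERF2i and 17.5 and 23.3 in ERF1i, against 24.8 and 26.1 in GUSi. The ERF2i lines were the lowest of the 6, and the level was 2.44-fold lower than in GUSi (log2 −1.28 ± 0.16 SE, adjusted p = 0.00254), a call made in every fit that left out 1 library. In ERF1i against GUSi the change was −0.32 ± 0.15 SE with an adjusted p of 0.294, and ERF2i was lower than ERF1i by −0.97 ± 0.16 SE (adjusted p = 0.0093), though not when ERF2i-2 or ERF2i-3 was omitted (adjusted p = 0.0728 and 0.0787). Receptors with PYL4-like descriptions thus went both up and down in ERF2i.

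Of the receptors like the monomeric PYL8 and PYL9 of Arabidopsis, 1 was called. The PYL8-like contig c28158_g3_i1, the most abundant receptor, had 191 and 181 normalised FPKM in ERF2i and 61.5 and 85.4 in ERF1i, against 102 and 87.1 in GUSi. It was 1.97-fold higher in ERF2i than in GUSi (log2 0.97 ± 0.17 SE, adjusted p = 0.00835) and 2.53-fold higher than in ERF1i (1.34 ± 0.17 SE, adjusted p = 0.00375), and both ERF2i lines exceeded every other library. The rise over GUSi was lost without ERF2i-2, ERF2i-3 or GUSi-10 (adjusted p of 0.0812, 0.0558 and 0.0579), and the difference from ERF1i without ERF2i-2 (adjusted p = 0.0503). The other PYL8-like contig, c394_g1_i1, had 27.8 and 25.4 in ERF2i and 29.8 and 33.6 in ERF1i, against 26.6 and 29.5 in GUSi. It and the pair of PYL9-like contigs of c27460_g1 were not called in any comparison, and their log2 changes stayed between −0.25 and 0.18 in ERF1i and between −0.08 and 0.00 in ERF2i against GUSi.

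Of the 5 clade A PP2C contigs, which belong to 3 assembly genes, 1 was called. The contig c23072_g1_i1 is described only as a PP2C and has PP2C 37-like as its best hit, the phosphatase that in Arabidopsis is PP2CA, a repressor of ABA responses. It had 62.8 and 52.0 normalised FPKM in ERF1i and 41.8 and 36.4 in ERF2i, against 31.2 and 33.7 in GUSi, with the constructs in that order and no overlap. It rose 1.77-fold in ERF1i (log2 0.82 ± 0.13 SE, adjusted p = 0.0271), and its change in ERF2i was 0.27 ± 0.13 SE (adjusted p = 0.186). ERF2i was lower than ERF1i (−0.55 ± 0.13 SE, adjusted p = 0.0292), and of the 6 fits that left out 1 library only the one without ERF1i-19 kept that call, the adjusted p in the others being 0.0526 to 0.159. The ABI2 homolog c26337_g1_i1 had 28.4 and 30.7 in ERF1i and 23.7 and 24.8 in ERF2i, against 28.6 and 27 in GUSi. It was not called, nor were the 3 contigs of c32959_g1, described as ABA insensitivity 1B and as PP2C 16-like (HAB1 in Arabidopsis), among which c32959_g1_i2 had the highest mean. Over these 4 contigs, log2 changes ran from −0.27 to 0.09 in ERF1i and from −0.42 to −0.10 in ERF2i against GUSi.

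The bZIP factors held the largest changes of the members in ERF2i. In Arabidopsis the name ABI5-like protein 5 stands for ABF2 (AREB1), an activator of ABA-responsive genes. The contig c30157_g1_i1 with this name had 48.2 and 42.7 normalised FPKM in ERF2i and 11 and 22.3 in ERF1i, against 9.13 and 9.19 in GUSi. It rose 4.93-fold in ERF2i (log2 2.30 ± 0.30 SE, adjusted p = 0.00296). The contig c16242_g1_i1 has the same description but a G-box-binding factor 4-like best hit, another bZIP protein. It had 66.6 and 64.8 in ERF2i and 13.4 and 28.5 in ERF1i, against 14.7 and 10.0 in GUSi, and rose 5.30-fold (log2 2.41 ± 0.34 SE, adjusted p = 0.00408). For both contigs the ERF2i lines were well above all other libraries and ERF1i-19 was the next highest. Both rises in ERF2i against GUSi were called in every fit that left out 1 library, with changes of 2.21 to 2.37 for c30157_g1_i1 and 2.16 to 2.71 for c16242_g1_i1.

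In ERF1i against GUSi the same pair had changes of 0.85 ± 0.31 SE (adjusted p = 0.18) and 0.76 ± 0.34 SE (adjusted p = 0.272). ERF2i exceeded ERF1i by 1.45 ± 0.28 SE (adjusted p = 0.0162) for c30157_g1_i1 and by 1.65 ± 0.33 SE (adjusted p = 0.0168) for c16242_g1_i1. These differences were lost without ERF2i-2 (adjusted p = 0.132 and 0.122) or without ERF2i-3 (adjusted p = 0.0806 and 0.09), and without ERF1i-19 they were 2.04 and 2.29. The 4 contigs of c30964_g1, described as ABI5-like protein 2 (in Arabidopsis AREB3, or DPBF3), lay between 6.36 and 11.3 normalised FPKM in all libraries, with c30964_g1_i2 the highest in mean. None of them was called, and their changes ran from −0.26 to 0.02 in ERF1i and from −0.12 to 0.00 in ERF2i against GUSi. Contigs described as ABI5 itself, c21555_g1_i1 and c44749_g1_i1, had at most 7 counts in a library and were not tested.

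**Figure D3:**
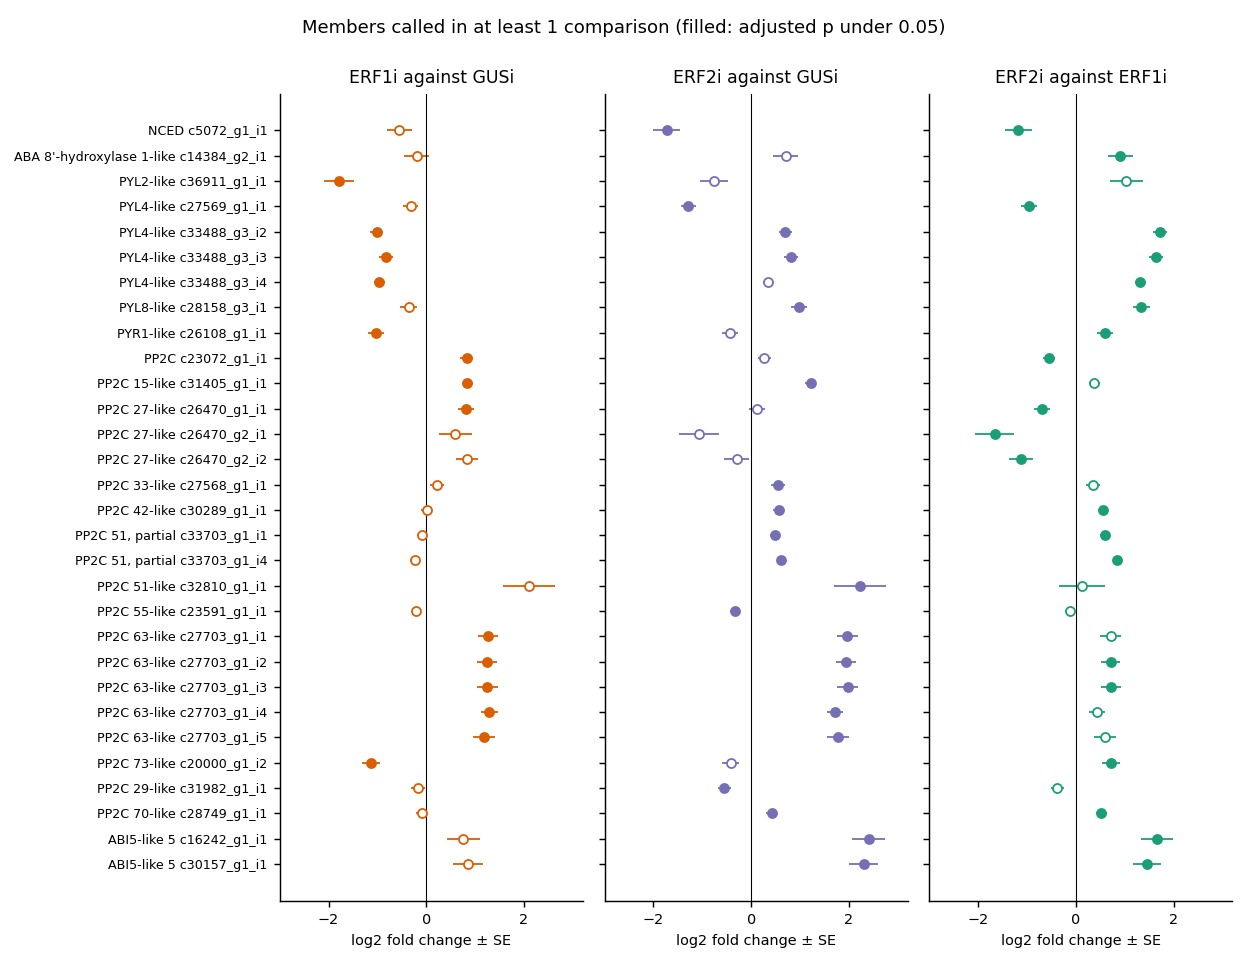
Log2 fold changes with SE (x axes) of the 30 members called at least once (rows, by role from synthesis to ABI5-type factors) in ERF1i against GUSi, ERF2i against GUSi and ERF2i against ERF1i. Filled points had an adjusted p under 0.05. The c33488_g3 receptor contigs lie below 0 in ERF1i (−1.02, −0.83 and −0.97) and above 0 in ERF2i against GUSi, and the PP2C 63-like contigs lie above 0 in both.

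Outside clade A, 59 of 67 PP2C contigs were tested, with means between 1.81 and 172 normalised FPKM. In ERF1i against GUSi, 7 contigs of 3 assembly genes rose and 1 fell; in ERF2i against GUSi, 12 contigs of 7 assembly genes rose and 2 fell. Their median changes were −0.04 and 0.05. In ERF2i against ERF1i, 7 contigs of 5 assembly genes rose and 3 contigs of 2 assembly genes fell. In no comparison were 41 of the 59 called. The share called in ERF1i against GUSi was 13.6%, beside 4.06% of all contigs. It was 23.7% in ERF2i against GUSi and 16.9% in ERF2i against ERF1i, near the 23.1% and 19.6% of all contigs.

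The PP2C 63-like assembly gene c27703_g1 supplied 5 of the rises under each hairpin. Its contig c27703_g1_i4 had 59.1 and 44.0 normalised FPKM in ERF1i and 72.0 and 66.7 in ERF2i, against 19.1 and 23.0 in GUSi. It rose 2.45-fold in ERF1i (log2 1.29 ± 0.17 SE, adjusted p = 0.0166) and 3.29-fold in ERF2i (1.72 ± 0.17 SE, adjusted p = 0.00115). All lines of both hairpins exceeded both controls. The other contigs, c27703_g1_i1, c27703_g1_i2, c27703_g1_i3 and c27703_g1_i5, changed by 1.18 to 1.26 in ERF1i and by 1.78 to 1.97 in ERF2i, and the 5 contigs belong to 1 assembly gene, so they were counted as 1 gene. All 5 rises in ERF2i against GUSi were called in every fit that left out 1 library. ERF2i exceeded ERF1i in c27703_g1_i2 and c27703_g1_i3 (0.71 and 0.72, adjusted p = 0.0477 and 0.0482), differences that were lost without ERF1i-19, ERF2i-2 or ERF2i-3 (adjusted p of 0.12 to 0.253) and, for c27703_g1_i2, also without GUSi-9 or GUSi-10 (0.0534 and 0.0535), while the adjusted p for the other 3 contigs was 0.0532 to 0.112.

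PP2C 15-like, c31405_g1_i1, was likewise higher under both hairpins. It had 25.8 and 27.1 normalised FPKM in ERF1i and 36.7 and 31.9 in ERF2i, against 14.4 and 15.1 in GUSi. The rise was 1.79-fold in ERF1i (log2 0.84 ± 0.11 SE, adjusted p = 0.0191) and 2.32-fold in ERF2i (1.22 ± 0.11 SE, adjusted p = 0.00101), and ERF2i against ERF1i gave 0.38 ± 0.11 SE (adjusted p = 0.0565). The ERF2i call was made in every fit that left out 1 library. With the 5 contigs of c27703_g1, this contig makes up the 6 members that were called in the same direction in both comparisons, which share the GUSi libraries; 2 more, c33488_g3_i2 and c33488_g3_i3, were called in opposite directions. PP2C 51-like c32810_g1_i1 had 20.7 and 9.84 in ERF1i and 19.1 and 14.2 in ERF2i, against 1.68 and 5.41 in GUSi. It falls outside the naming rule and was singled out after its values were seen: it rose in ERF2i (log2 2.23 ± 0.53 SE, adjusted p = 0.0259), kept that call in 3 of the 6 fits that left out 1 library, and had 2.10 ± 0.53 SE with an adjusted p of 0.0785 in ERF1i.

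**Figure D4:**
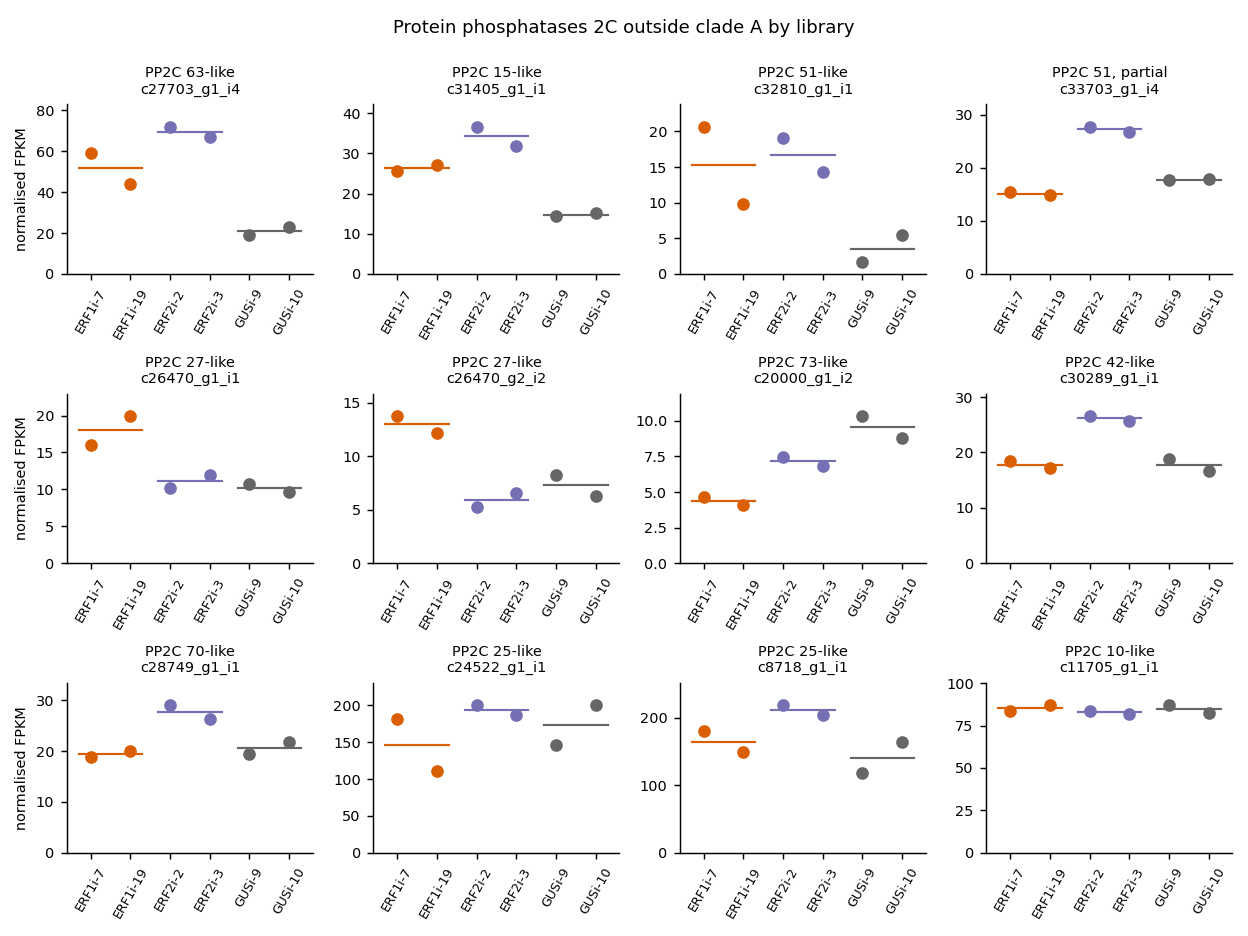
Normalised FPKM (y axis, from 0) of 12 PP2C contigs outside clade A in the 6 libraries (x axis). Points are libraries, 1 per line, and the horizontal lines are the means of the 2 lines of a construct. PP2C 63-like and PP2C 15-like are higher in all 4 lines with an *OpERF* hairpin than in GUSi, PP2C 73-like is lowest in ERF1i (4.64 and 4.08), and PP2C 10-like lies between 82.1 and 87.1 throughout.

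A PP2C 27-like contig rose in ERF1i, and 3 such contigs were lower in ERF2i than in ERF1i. The contig c26470_g1_i1 had 16.1 and 19.96 normalised FPKM in ERF1i and 10.2 and 12 in ERF2i, against 10.7 and 9.70 in GUSi. It rose 1.76-fold in ERF1i (log2 0.82 ± 0.16 SE, adjusted p = 0.0441) and was lower in ERF2i than in ERF1i (−0.70 ± 0.16 SE, adjusted p = 0.0286). The related c26470_g2_i2 had 5.28 and 6.58 in ERF2i, 13.8 and 12.2 in ERF1i, and 8.25 and 6.30 in GUSi. It and c26470_g2_i1 were lower in ERF2i than in ERF1i by −1.13 ± 0.24 and −1.67 ± 0.39 SE (adjusted p = 0.0209 and 0.0287), while in ERF1i against GUSi they had 0.83 and 0.60, with adjusted p of 0.0963 and 0.365. Without ERF2i-2 or ERF2i-3 none of these 3 differences between ERF2i and ERF1i was called (adjusted p of 0.0778 to 0.192), the difference in c26470_g1_i1 was lost without ERF1i-19 as well (adjusted p = 0.0838), and that in c26470_g2_i1 under each omission (0.0534 to 0.174).

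PP2C 73-like, c20000_g1_i2, was the only other PP2C contig to fall in ERF1i among those tested. A second contig of that assembly gene, c20000_g1_i1, was not called in any comparison. Against GUSi it had −0.74 in ERF1i (adjusted p = 0.0986) and −0.03 in ERF2i. The called contig c20000_g1_i2 had 4.64 and 4.08 normalised FPKM in ERF1i and 7.49 and 6.83 in ERF2i, against 10.3 and 8.82 in GUSi. The level was 2.20-fold lower in ERF1i than in GUSi (log2 −1.13 ± 0.18 SE, adjusted p = 0.0264). In ERF2i the change was −0.42 ± 0.17 SE (adjusted p = 0.122), and ERF2i exceeded ERF1i by 0.71 ± 0.19 SE (adjusted p = 0.0392), a call that no fit leaving out 1 library made (adjusted p of 0.0523 to 0.206).

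The remaining calls in ERF2i were small. PP2C 51, partial, has 2 called contigs: c33703_g1_i4, with 27.8 and 26.7 normalised FPKM in ERF2i and 15.4 and 14.8 in ERF1i, against 17.7 and 17.8 in GUSi, and c33703_g1_i1, with 28.8 and 27.3 in ERF2i, 18.8 and 18.6 in ERF1i, and 19.6 and 20.3 in GUSi. Their rises in ERF2i were 0.61 ± 0.10 and 0.49 ± 0.09 SE (adjusted p = 0.00588 and 0.0128), and their excesses over ERF1i 0.85 ± 0.10 and 0.59 ± 0.09 SE (adjusted p = 0.00288 and 0.00836). The difference between ERF2i and ERF1i in c33703_g1_i4 was called in every fit that left out 1 library. The rise of c33703_g1_i4 over GUSi was lost without ERF2i-2 (adjusted p = 0.0665), and that of c33703_g1_i1 without either ERF2i or either GUSi library (0.0654 to 0.114). The difference of c33703_g1_i1 from ERF1i was lost without ERF2i-2 or ERF2i-3 (adjusted p of 0.0553 to 0.0915).

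PP2C 42-like c30289_g1_i1 had 26.6 and 25.7 normalised FPKM in ERF2i and 18.4 and 17.2 in ERF1i, against 18.8 and 16.7 in GUSi, a rise of 0.56 ± 0.11 SE in ERF2i against GUSi (adjusted p = 0.0134). PP2C 70-like c28749_g1_i1, named KAPP in Arabidopsis, where it binds receptor-like kinases, had 29.1 and 26.4 in ERF2i and 18.8 and 20.1 in ERF1i, against 19.5 and 21.9 in GUSi. Its rise in ERF2i was 0.42 ± 0.11 SE (adjusted p = 0.0364). Both contigs were higher in ERF2i than in ERF1i, by 0.55 and 0.51 (adjusted p = 0.0172 and 0.0227), differences lost without ERF2i-2 or ERF2i-3, and also without ERF1i-19 for c30289_g1_i1 and without ERF1i-7 for c28749_g1_i1 (adjusted p up to 0.134 and 0.165). Both rises over GUSi were lost without ERF2i-2, ERF2i-3 or GUSi-10, that of c28749_g1_i1 also without GUSi-9, and both without scaling beyond the library total (adjusted p = 0.0628 and 0.232). A second PP2C 42-like contig of the same assembly gene, c30289_g1_i2, was not called. In ERF2i it had 0.29 against GUSi (adjusted p = 0.107) and 0.31 against ERF1i (adjusted p = 0.0953). The other 3 called contigs, named after their values were seen, were PP2C 33-like c27568_g1_i1 (0.56, adjusted p = 0.0337), PP2C 55-like c23591_g1_i1 (−0.34, adjusted p = 0.0437) and PP2C 29-like c31982_g1_i1 (−0.55, adjusted p = 0.03), which in Arabidopsis is POLTERGEIST, a regulator of stem cells in the meristem. Each kept its call in 2 or 3 of the 6 fits that left out 1 library.

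The most abundant PP2Cs outside clade A were not called. The PP2C 25-like contigs c24522_g1_i1 and c8718_g1_i1, named for the Arabidopsis phosphatase AP2C1 that acts on mitogen-activated protein kinases, reached 200 and 218 normalised FPKM. c24522_g1_i1 had 182 and 111 in ERF1i and 200 and 187 in ERF2i, against 146 and 200 in GUSi, and c8718_g1_i1 had 180 and 148 in ERF1i and 218 and 204 in ERF2i, against 118 and 163 in GUSi. The ERF2i change of c8718_g1_i1 was 0.59 ± 0.18 SE (adjusted p = 0.056). PP2C 10-like c11705_g1_i1 was the steadiest abundant member, between 82.1 and 87.1 in the 6 libraries, with changes of 0.01 ± 0.10 and −0.03 ± 0.10 SE in ERF1i and ERF2i against GUSi. The ABA stress ripening contigs c28584_g1_i1 and c28584_g1_i2 had 107 and 54.8, and 133 and 65.5, in the ERF1i lines, 70.4 to 113 in ERF2i and 88.3 to 98.7 in GUSi. For both contigs the ERF1i lines lay on either side of the GUSi lines, and no comparison called either contig.

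Around the members, the carotenoid route that feeds ABA held calls in both directions in ERF2i. In ERF2i against GUSi, 57.9% of tested carotenoid synthesis contigs were called, and 66.7% of those for cleavage enzymes other than NCED. The share of all contigs was 23.1%. Of 19 tested contigs of carotenoid synthesis, 6 (3 assembly genes) rose and 5 (5 assembly genes) fell in ERF2i against GUSi, and edgeR called 0 in ERF1i against GUSi (4 higher and 2 lower at an unadjusted p under 0.05; DESeq2 called 2 rises). In ERF2i against GUSi, DESeq2 called 5 rises and 2 falls, and of the edgeR calls 3 rises and 0 falls remained without ERF2i-2, 2 and 1 without ERF2i-3, and 3 and 1 without either GUSi library. The carotenoid isomerase c30575_g1 rose: its contig c30575_g1_i4 had 3.65 and 4.56 normalised FPKM in ERF2i and 1.56 and 1.70 in ERF1i, against 1.53 and 1.29 in GUSi (log2 1.54 ± 0.21 SE, adjusted p = 0.0035), and c30575_g1_i3 changed by 1.55, both called in every fit that left out 1 library. Phytoene desaturase c30205_g1_i1, an early enzyme of the route, had 13.4 and 13.4 in ERF2i and 20.9 and 18.7 in ERF1i, against 23.2 and 21.0 in GUSi, and fell (−0.72 ± 0.11 SE, adjusted p = 0.00564), though not without ERF2i-2 or ERF2i-3 (at most 0.0641). Of 6 tested contigs of carotenoid cleavage enzymes other than NCED, 4 (2 assembly genes) fell in ERF2i and 0 rose; 0 of the 4 falls remained without ERF2i-2 or GUSi-10, 1 without ERF2i-3 and 2 without GUSi-9. Among them carotenoid cleavage dioxygenase 1, which makes volatile apocarotenoids and not ABA, had 5.65 and 7.05 in ERF2i, 8.30 and 10.6 in ERF1i, and 11.3 and 13.1 in GUSi for c30484_g1_i3 (−0.95 ± 0.17 SE, adjusted p = 0.0108; lost without ERF2i-2 or GUSi-10, at most 0.101). The contigs c30484_g1_i1 and c30484_g1_i2 fell by 0.79 and 0.81 on the log2 scale, and kept the call in 3 and 2 of the 6 fits that left out 1 library. The 10 tested contigs of the steps from xanthoxin to ABA, such as aldehyde oxidases, were not called in any comparison by edgeR or DESeq2, with medians between −0.10 and −0.01; at an unadjusted p under 0.05, 1 was lower in ERF1i and 1 in ERF2i against GUSi.

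In the SnRK2 kinase family, 2 of 6 contigs (2 assembly genes) fell in ERF2i against GUSi and 0 rose. The share called was 33.3% there and 50% in ERF2i against ERF1i, beside 23.1% and 19.6% of all contigs. The SRK2B-like c30496_g4_i1 had 26.7 and 28.1 normalised FPKM in ERF2i and 34.1 and 36.8 in ERF1i, against 45.6 and 45.2 in GUSi (ERF2i against GUSi: log2 −0.73 ± 0.10 SE, adjusted p = 0.00381). The second was the SAPK2-like c30573_g1_i2 (−0.65 ± 0.12 SE, adjusted p = 0.0126). The first was lost without ERF2i-2 (adjusted p = 0.0527) and the second without ERF2i-2, ERF2i-3 or GUSi-9 (at most 0.0868). The SRK2E-like and SRK2I-like contigs, named for the kinases that carry most ABA signalling in Arabidopsis, were not called. ERF2i was lower than ERF1i in 3 of the 6, with the SAPK2 contig c30573_g2_i1 at −1.10 ± 0.23 SE (adjusted p = 0.0201), and of these 3 differences 0 remained without ERF2i-2 or ERF2i-3 and 1 without ERF1i-19, GUSi-9 or GUSi-10, while DESeq2 called 1. S-type anion channels of the SLAH3 type let nitrate and chloride out of cells. In ERF1i against GUSi, 3 of the 4 tested contigs (2 assembly genes) rose. The share called was 75% in ERF1i and 25% in ERF2i against GUSi, beside 4.06% and 23.1% of all contigs. The contig c31454_g1_i2 had 10.8 and 19.8 in ERF1i and 7.80 and 8.09 in ERF2i, against 2.73 and 3.77 in GUSi, and rose by 2.23 ± 0.30 SE in ERF1i (adjusted p = 0.0182) and by 1.29 ± 0.30 SE in ERF2i (adjusted p = 0.0249). The contig c31454_g1_i1 of the same assembly gene and the separate c13126_g1_i1 rose in ERF1i by 2.27 and 2.74. All of these calls in ERF1i, and the rise in ERF2i, were lost without ERF2i-2, ERF2i-3, GUSi-9 or GUSi-10. The ERF1i call of c13126_g1_i1 was lost without ERF1i-19 as well, with log2 changes of 2.07 to 3.21 over the 6 fits.

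**Figure D5:**
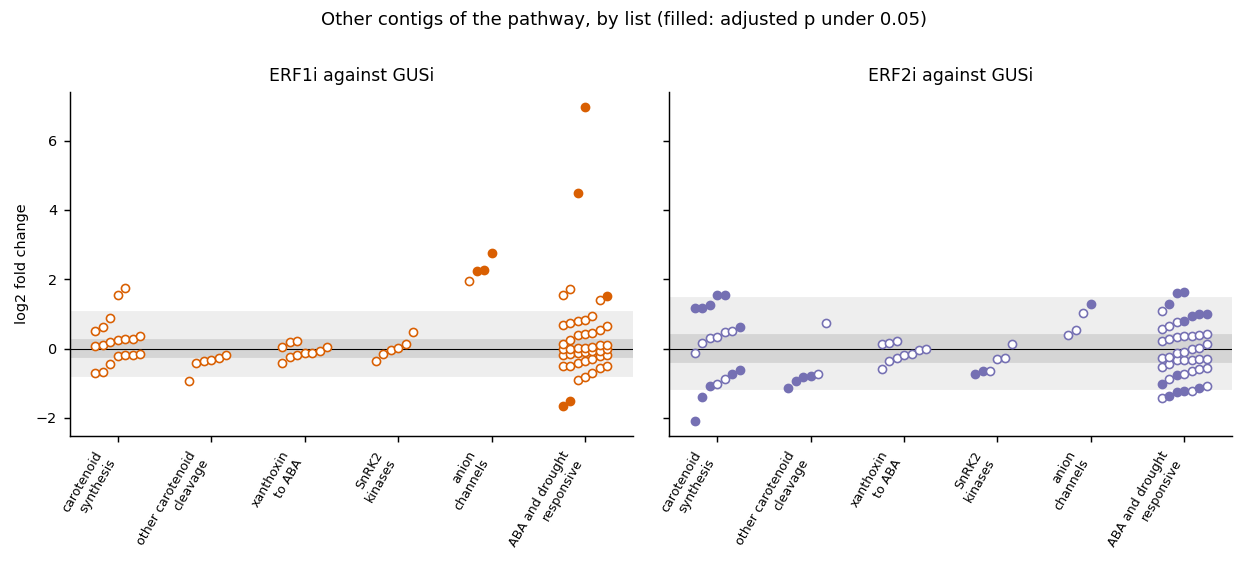
Log2 fold changes (y axis) of tested contigs in 6 lists around the members, in the order of the pathway (x axis), for ERF1i against GUSi and ERF2i against GUSi. Filled points had an adjusted p under 0.05, and the bands hold the middle 50% and 90% of all contigs tested. Anion channels lie above 0 in ERF1i (3 of 4 called), other carotenoid cleavage enzymes mostly below 0 in ERF2i (4 of 6 called), and ABA and drought-responsive contigs go both ways.

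Contigs listed here as ABA and drought-responsive proteins (dehydrins, late embryogenesis abundant or LEA proteins, RD22 and HVA22 types) changed in both directions. The list was drawn by protein name, and these descriptions do not themselves name ABA. Of 46 tested, 3 (3 assembly genes) rose and 2 (1 assembly gene) fell in ERF1i against GUSi. In ERF2i against GUSi, 7 (6 assembly genes) rose and 6 (4 assembly genes) fell. The medians were 0.00 and −0.19. The share called was 10.9% in ERF1i, beside 4.06% of all contigs, and 28.3% in ERF2i, beside 23.1% of all contigs. DESeq2 called 7 rises and 2 falls in ERF1i (14 and 4 at an unadjusted p under 0.05 in edgeR). Of the ERF1i calls, 0 rises and 1 fall remained without ERF2i-2 or ERF2i-3, 0 and 0 without GUSi-9, and 0 and 2 without GUSi-10. Of the ERF2i calls, 1 rise and 1 fall remained without ERF2i-2, 3 and 2 without ERF2i-3, 4 and 3 without GUSi-9, and 2 and 4 without GUSi-10. The hydroxyproline-rich LEA contig c33655_g1_i4 fell under both hairpins, with 5.27 and 5.42 normalised FPKM in ERF1i and 5.70 and 7.47 in ERF2i, against 16.2 and 17.6 in GUSi: the log2 change was −1.66 ± 0.17 SE in ERF1i (adjusted p = 0.0114) and −1.36 ± 0.17 SE in ERF2i (adjusted p = 0.00276). c33655_g1_i2, of the same assembly gene, fell by 1.52 and 1.27, the first lost without ERF2i-2, ERF2i-3 or GUSi-9 (adjusted p up to 0.0664) and the second without ERF2i-2 (0.0632). The fall of c33655_g1_i4 in ERF1i had an adjusted p of 0.0504 without GUSi-9. The most abundant contig of c33655_g1, c33655_g1_i3, was not called in any comparison. Its changes were −0.49 in ERF1i (adjusted p = 0.272) and −0.31 in ERF2i against GUSi (adjusted p = 0.35). For c33655_g1_i1 the changes were −0.90 in ERF1i (adjusted p = 0.0791, not called) and −1.02 in ERF2i against GUSi (adjusted p = 0.0228). A different contig with that description, c28836_g1_i1, had 115 and 112 in ERF2i and 62.4 and 61.4 in ERF1i, against 65.5 and 53.8 in GUSi, and rose in ERF2i (0.93 ± 0.12 SE, adjusted p = 0.00303). The LEA14 homolog c47375_g1_i1, singled out after its values were seen, rose under both hairpins. It had 315 and 193 in ERF1i and 271 and 269 in ERF2i, against 67.9 and 109 in GUSi. Its log2 change in ERF1i was 1.52 ± 0.28 SE (adjusted p = 0.0391, edgeR). In ERF2i it was 1.60 ± 0.29 SE (adjusted p = 0.00954, edgeR). The ERF1i call was lost without ERF2i-2, ERF2i-3, GUSi-9 or GUSi-10, and the ERF2i call without ERF2i-2 or ERF2i-3. In ERF2i against ERF1i, 4 rose and 10 fell, of which 0 rises and 1 fall remained without ERF2i-2, 1 and 1 without ERF2i-3, and 2 and 6 without ERF1i-19. The LEA contig c19180_g2_i1 was called there and in ERF1i against GUSi: it had 0 and 0.676 in ERF2i and 21.2 and 28.3 in ERF1i, and 1.53 and 0.512 in GUSi, where it rested on 3 and 1 counts. The call in ERF1i against GUSi was lost without ERF2i-2, ERF2i-3, GUSi-9 or GUSi-10 (adjusted p up to 0.0692), and its log2 change ran from 3.93 to 5.40 over the fits that left out 1 library. RD22 c21970_g2_i1 had 245 and 268 in ERF2i and 570 and 436 in ERF1i, against 323 and 322 in GUSi, and its difference of ERF2i from ERF1i was −0.98 ± 0.15 SE (adjusted p = 0.0069), lost without ERF2i-2 or ERF2i-3 (at most 0.0862).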

How the data were processed

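Paired-end RNA-seq reads of 6 HR lines had been aligned by the authors with Bowtie2 2.0 to an earlier de novo transcriptome of the species, and the authors estimated contig levels with RSEM (its version is not given in the sources used here). For each library the deposited files hold expected counts and an effective length per contig and library, and the deposited annotation table holds FPKM values made by the authors with contig descriptions. The differential expression step is named as DESeq in the labels and as DESeq2 in the methods of the study. No sequence of the contigs was used here, and the qRT-PCR and metabolite measurements were not analysed here.

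Expected counts were rounded (1 value was further than 1e-09 from a whole number) and fitted with edgeR 4.0.16 in R 4.3.3: TMM scaling, filterByExpr by group (count minimum 10, total minimum 15), 1 quasi-likelihood fit of the 3 groups over all 6 libraries with 3 residual degrees of freedom, and Benjamini-Hochberg adjustment over the 33315 contigs tested. The biological coefficient of variation was 14.7%. Normalised FPKM is TMM-scaled CPM per kilobase of effective length; it was computed with Python 3.11.15, numpy 2.4.6 and pandas 2.3.3, and drawn with matplotlib 3.10.9. The 2 libraries of a construct are separate lines, so the p-values rest on the spread between lines. That spread was estimated over the 3 constructs together and with information from other contigs. It is thus not the spread of the compared lines alone. With 1 library of each line, variation between lines, cultures and libraries cannot be told apart.

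Members, role classes and lists were chosen with earlier results of these data known; the clade A class was widened after the descriptions were read. Named were members called in a comparison (at most the 15 lowest p each), the 3 members of highest mean FPKM per role, and at most 3 called contigs per other list and comparison; exceptions are marked. Roles come from the descriptions, and no sequence was examined. Alternatives were RLE size factors, no scaling, no filter, 4-library fits, sums over assembly genes, DESeq2 1.42.0, limma-trend 3.58.1 on log2(FPKM + 1), a minimum log2 change of 1, single lines and leaving out each library.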

Additional observations from a re-analysis of the deposited data

How the results depend on the processing

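No paired analysis was possible because the lines of the 3 constructs share no replicate numbers. RLE size factors changed no call. The counts of members that moved by more than 1.5 times were as follows, rises before falls; the causes were not tested. Without scaling beyond the library total, ERF2i against GUSi gave 14 falls, and ERF2i against ERF1i gave 9 rises and 11 falls. Without the low-count filter, ERF1i against GUSi gave 2 rises and 3 falls, ERF2i against GUSi 2 falls and ERF2i against ERF1i 3 falls. With only the 4 libraries compared, edgeR called 0 rises and 0 falls in ERF1i against GUSi (11 and 8 at an unadjusted p under 0.05). Summed over assembly genes, that comparison gave 3 rises, a count of genes, where the 8 contigs that rose belonged to 4 assembly genes. Limma-trend on log2(FPKM + 1) gave 0 rises and 0 falls there (10 and 12 unadjusted; DESeq2 called 9 and 6), 11 rises and 9 falls in ERF2i against GUSi, and 8 rises in ERF2i against ERF1i. A minimum absolute log2 change of 1 gave 5 rises in ERF1i against GUSi, 9 rises and 2 falls in ERF2i against GUSi, and 6 rises and 3 falls in ERF2i against ERF1i. With that minimum and a single line, ERF1i-7 gave 1 fall and ERF1i-19 gave 5 rises against GUSi, ERF2i-2 gave 8 rises and 2 falls and ERF2i-3 gave 8 rises and 1 fall against GUSi, and against ERF1i each gave 4 rises and 0 falls (20 and 8 unadjusted for ERF2i-2, 14 and 7 for ERF2i-3).

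Leaving out each library in turn gave 0 to 12 rises and 0 to 8 falls in ERF1i against GUSi, 8 to 18 rises and 1 to 6 falls in ERF2i against GUSi, and 4 to 17 rises and 0 to 6 falls in ERF2i against ERF1i. In these fits a lone library is taken to vary like the other groups. All 6 such fits made 0 of the 14 calls in ERF1i against GUSi, 9 of the 21 in ERF2i against GUSi and 4 of the 21 in ERF2i against ERF1i. At unadjusted p under 0.05 the fits without ERF2i-2 or ERF2i-3 each had 11 rises and 8 falls in ERF1i against GUSi, that without GUSi-9 had 12 and 11, and that without GUSi-10 had 13 rises; in ERF2i against ERF1i, where the fits without ERF2i-2 and ERF2i-3 called 0 falls, they had 7 and 8. No alternative run on single contigs reversed a called member; the sums over assembly genes were compared by counts alone. The filter left out the 13 members with at most 10 counts in a library, which entered the fit without it.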
